A study of Mus musculus with 18 samples.

Results

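The receptor tyrosine kinases of the FGF and EGF families were followed in mouse medulloblastoma as 8 genes of the 19938 that the arrays measured under a single gene symbol. They were the 4 FGF receptor genes Fgfr1, Fgfr2, Fgfr3 and Fgfr4 and the 4 EGF receptor genes Egfr, Erbb2, Erbb3 and Erbb4, taken by symbol, with the probe set of highest mean where a gene had several, and all 8 were measured. Total RNA of each tumour was extracted with Trizol, converted to cDNA carrying biotin, and read on Affymetrix Gene ST 1.0 mouse arrays, which sample transcripts with probes along their length. All values below are log2 values as deposited, so that a difference of 1 is a 2-fold difference.

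The 18 arrays formed 5 groups, and all tumours were medulloblastomas by label. GFD-Smo;GFAP-cre tumours (n = 4, here GFD-Smo) and NG-Smo;Atoh1-CreER tumours (n = 4, here NG-Smo) were labelled with Smo, the signal transducer of the Hedgehog pathway, and a Cre driver. GFI-Ptch (n = 4), GFD-Ptch (n = 2) and NG-Ptch tumours (n = 4) were labelled with Ptch, the receptor that holds Smo inactive. NG, GFD and GFI were named in the labels as subtypes without further explanation, and the labels gave no age, strain, inducing agent or allele. Among Smo tumours, subtype and Cre driver (GFAP-cre, as background a driver active in astrocytes and neural precursors, or Atoh1-CreER, an inducible driver of granule neuron progenitors) divided the arrays in the same way and cannot be told apart. GFI-Ptch replicate 4 was labelled as having progressed from another tumour in a female NSG (immunodeficient) host, and both GFD-Ptch tumours were labelled male. Of the NG-Ptch tumours, 1 was labelled female and 3 had no gender given, and Y-linked genes averaged 9.84 in both GFD-Ptch arrays and 5.40 to 5.47 in the NG-Ptch arrays, so subtype and sex cannot be told apart between these groups. The Y-linked level went against the gender label in 3 of the 13 arrays that had one: GFD-Smo replicate 2 (female, 10.05), GFD-Smo replicate 3 (male, 5.48) and GFI-Ptch replicate 4 (male, 5.37). Within GFD-Smo (10.05 and 5.48), NG-Smo (9.93 and 5.47) and GFI-Ptch (10.16 and 5.45), arrays had both high and low Y-linked levels. The arrays of those groups thus did not all come from a single animal. The labels do not say that each array came from a separate animal. The p-values therefore cover no more than the spread among these arrays, part of which may be technical. In whole-tumour RNA, fewer cells of a type and less RNA per cell cannot be told apart.

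FGF receptors bind fibroblast growth factors together with heparan sulphate co-receptors and signal through the adaptor Frs2 to the Ras and ERK cascade, which induces its own feedback inhibitors of the Sprouty and Dusp families. EGF receptors work as pairs: Egfr binds EGF-like ligands, Erbb3 and Erbb4 bind neuregulins, Erbb2 has no known ligand of its own and serves as a partner, and Erbb3 has little kinase activity and signals through its partners. In the cerebellum, Fgfr3 is known as a gene of astrocytes and their precursors, Fgfr2 of glia, and Erbb4 of neurons, and FGF signalling is known to counter the Hedgehog response of granule neuron progenitors.

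The promoters of Fgfr2, Fgfr3 and Erbb2 are shown first, because these 3 receptor genes were the ones called in a comparison below. RefSeq gave a promoter (GRCm38.p6, 250 bases before the start and 50 from it) for 6 of the 8 members, 7 promoters in all. Those of Fgfr2, Fgfr3 (2 starts) and Erbb2 read, 5′ to 3′ on the strand of the gene and with the bases from the start onward in capitals:
Fgfr2 (chr7:130266759-130267058, minus strand): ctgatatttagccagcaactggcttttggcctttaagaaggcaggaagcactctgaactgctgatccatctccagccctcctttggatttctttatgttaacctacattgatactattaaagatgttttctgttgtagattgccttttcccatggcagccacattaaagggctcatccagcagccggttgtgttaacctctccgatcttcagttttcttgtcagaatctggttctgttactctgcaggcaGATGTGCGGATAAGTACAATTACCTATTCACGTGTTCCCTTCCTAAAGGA
Fgfr3, upstream start (chr5:33721474-33721773, plus strand): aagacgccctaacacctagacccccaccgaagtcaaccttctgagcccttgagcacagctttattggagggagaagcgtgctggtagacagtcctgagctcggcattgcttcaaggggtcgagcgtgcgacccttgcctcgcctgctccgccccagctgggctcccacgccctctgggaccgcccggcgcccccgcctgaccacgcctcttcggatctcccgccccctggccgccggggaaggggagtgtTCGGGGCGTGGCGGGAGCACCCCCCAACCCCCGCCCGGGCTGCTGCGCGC
Fgfr3, downstream start (chr5:33722056-33722355, plus strand): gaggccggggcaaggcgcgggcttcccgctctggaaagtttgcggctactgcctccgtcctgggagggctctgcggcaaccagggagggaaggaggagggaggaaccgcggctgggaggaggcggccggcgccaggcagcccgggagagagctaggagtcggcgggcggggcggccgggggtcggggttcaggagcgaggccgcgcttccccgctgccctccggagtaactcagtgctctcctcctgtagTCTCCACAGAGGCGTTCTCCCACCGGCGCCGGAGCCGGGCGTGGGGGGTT
Erbb2 (chr11:98412234-98412533, plus strand): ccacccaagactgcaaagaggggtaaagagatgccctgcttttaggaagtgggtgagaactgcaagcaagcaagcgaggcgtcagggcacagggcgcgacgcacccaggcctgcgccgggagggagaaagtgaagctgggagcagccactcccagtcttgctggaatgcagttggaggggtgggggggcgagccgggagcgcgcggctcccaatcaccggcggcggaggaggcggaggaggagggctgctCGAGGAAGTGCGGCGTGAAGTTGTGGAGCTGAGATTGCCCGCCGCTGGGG
The Fgfr2 promoter had a GC content of 43.7% and 4 CpG pairs, against a median of 52.7% and 7 CpG pairs over all 32851 promoters of this length. The Fgfr3 promoters (69.7% and 73% GC, 26 and 30 CpG pairs) and the Erbb2 promoter (66% GC, 21 CpG pairs) lay on the other side of that median. The letters GACCACCCA (the core of the GLI site of Hedgehog targets, held by 0.253% of all promoters), TTCNNNGAA (STAT, 8.3%) and TATAAA (bound by TBP, 13.6%) were searched on both strands and were in 0 of the 7 promoters of members. The NFI core TTGGCA (14.1% of all promoters) was in that of Fgfr4 alone among the 7. These searches describe letters in these windows and not sites in use.

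Of the 4 FGF receptors, 3 (Fgfr2, Fgfr3 and Fgfr4) had their highest mean in GFD-Smo tumours. Fgfr2 stood at 9.33, 9.77, 9.35 and 9.71 in GFD-Smo tumours, against 8.21, 8.62, 8.38 and 8.78 in NG-Smo tumours. In the Ptch tumours it was 9.34, 9.02, 8.15 and 7.48 in GFI-Ptch, 7.79 and 7.26 in GFD-Ptch, and 8.58, 8.63, 8.48 and 8.30 in NG-Ptch. The GFD-Smo arrays lay above all NG-Smo, GFD-Ptch and NG-Ptch arrays, the GFI-Ptch arrays were spread over most of the range and reached that of GFD-Smo with replicate 1, and the GFD-Ptch arrays lay below all NG-Ptch arrays.

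Fgfr3 stood at 9.12, 9.38, 9.29 and 9.12 in GFD-Smo tumours, against 7.98, 7.87, 7.83 and 8.15 in NG-Smo tumours. It was 8.66, 7.90, 7.76 and 7.41 in GFI-Ptch, 7.44 and 7.76 in GFD-Ptch, and 8.15, 7.86, 8.14 and 7.82 in NG-Ptch tumours. Every GFD-Smo array lay above each of the other 14 arrays, and the remaining groups overlapped their neighbours in the order of means (NG-Ptch 7.99, NG-Smo 7.96, GFI-Ptch 7.93 and GFD-Ptch 7.60).

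Fgfr4, the FGF receptor known from muscle progenitors and liver, stood at 9.38, 9.56, 9.60 and 9.43 in GFD-Smo tumours, against 7.62, 9.77, 8.07 and 7.82 in NG-Smo tumours. It was 7.76, 8.08, 7.70 and 9.60 in GFI-Ptch, 8.22 and 8.24 in GFD-Ptch, and 8.16, 8.33, 7.57 and 8.68 in NG-Ptch tumours. Single arrays of NG-Smo (replicate 2) and GFI-Ptch (replicate 4) reached or passed the level of GFD-Smo, and the other 12 arrays stayed at or below 8.68. Fgfr1, the widely expressed FGF receptor of neural progenitors, differed least, with values of 10.47 to 10.56 in GFD-Smo, 10.19 to 10.65 in NG-Smo, 10.28 to 10.75 in GFI-Ptch, 10.03 to 10.34 in GFD-Ptch and 10.33 to 10.50 in NG-Ptch tumours. Its 5 group means spanned 0.35, and each group overlapped its neighbours.

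Among the EGF receptors, Erbb2 alone had its highest values in GFD-Smo tumours without overlap. Erbb2 stood at 7.71, 7.75, 7.83 and 7.77 in GFD-Smo tumours, against 6.79, 6.86, 6.79 and 7.28 in NG-Smo tumours. It was 7.31, 7.09, 6.80 and 6.82 in GFI-Ptch, 6.94 and 7.28 in GFD-Ptch, and 6.86, 6.83, 7.06 and 7.12 in NG-Ptch tumours. The 4 GFD-Smo arrays lay above each of the other 14, and those 4 groups overlapped with each other. Another probe set is annotated to both Erbb2 and Sympk and was not used. It read 5.98 to 6.20 in GFD-Smo, 6.13 to 6.87 in NG-Smo, 6.18 to 6.51 in GFI-Ptch, 6.25 to 6.39 in GFD-Ptch and 6.06 to 6.27 in NG-Ptch tumours, and there GFD-Smo was not above the other groups.

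Egfr stood at 10.75, 10.86, 10.91 and 10.92 in GFD-Smo tumours, against 11.26, 11.45, 11.26 and 10.98 in NG-Smo tumours. It was 10.98, 10.97, 10.75 and 10.01 in GFI-Ptch, 11.03 and 10.68 in GFD-Ptch, and 10.91, 11.39, 10.96 and 11.56 in NG-Ptch tumours. Both NG groups had the highest means (NG-Smo 11.24, NG-Ptch 11.21), but in the order of means each group overlapped the next, and the lowest array was GFI-Ptch replicate 4.

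Erbb3, the neuregulin receptor known from glia and Schwann cells, stood at 7.14, 7.04, 7.27 and 7.27 in GFD-Smo tumours, against 7.39, 7.38, 7.85 and 8.12 in NG-Smo tumours. It was 7.25, 7.48, 6.94 and 8.60 in GFI-Ptch, 7.04 and 7.23 in GFD-Ptch, and 7.45, 7.28, 7.52 and 7.36 in NG-Ptch tumours. Both GFD groups lay below both NG groups without overlap, and the highest array was again GFI-Ptch replicate 4. Erbb4 stood at 10.88 to 11.11 in GFD-Smo, 10.66 to 11.22 in NG-Smo, 10.28 to 11.22 in GFI-Ptch, 11.24 and 11.55 in GFD-Ptch, and 10.87 to 11.35 in NG-Ptch tumours. Its groups overlapped their neighbours, with GFD-Ptch highest (mean 11.40) and GFI-Ptch lowest (10.86). The files hold no detection p-values, so it is not known whether the dimmer probe sets, those of Erbb2 and Erbb3, were above background in every group.

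**Figure D1:**
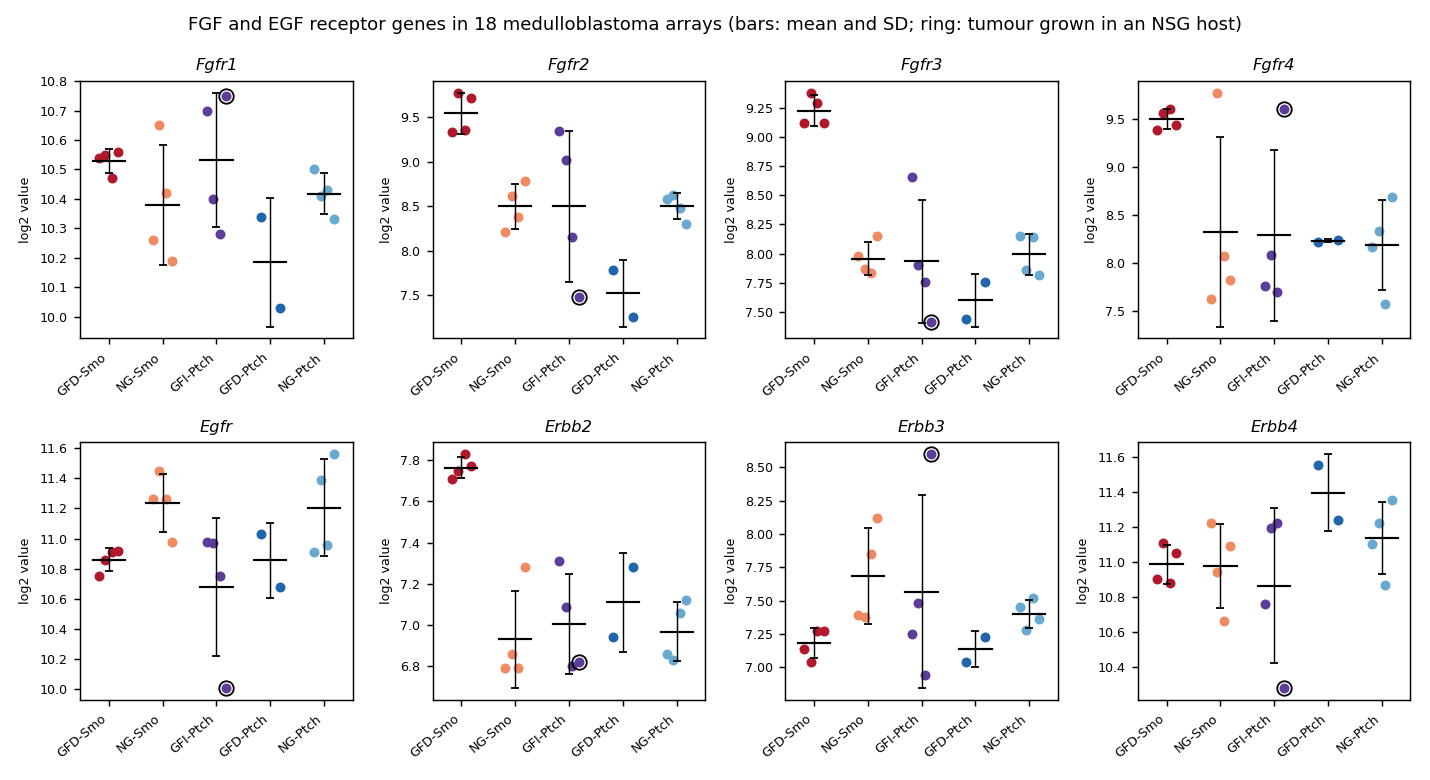
Deposited log2 value (vertical axis, own scale per gene) of the 8 receptor genes in each array, by group from GFD-Smo on the left to NG-Ptch on the right, with bars for mean and SD and a ring around GFI-Ptch replicate 4, grown in an NSG host. Fgfr2, Fgfr3 and Erbb2 are highest in GFD-Smo, with means of 9.54, 9.23 and 7.77, while Fgfr1 differs by at most 0.35 between group means.

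The comparison of GFD-Smo with NG-Smo tumours sets the subtype and Cre driver of the Smo model against each other. Fgfr3 was 2.41-fold higher in GFD-Smo tumours (log2 change 1.27, SE 0.19, 95% interval 0.86 to 1.67, limma adjusted p = 0.000902), with means of 9.23 ± 0.13 in GFD-Smo and 7.96 ± 0.14 in NG-Smo (SD, n = 4 each). Erbb2 was 1.79-fold higher (0.84, SE 0.13, 95% interval 0.57 to 1.11, limma adjusted p = 0.00102), with means of 7.77 ± 0.05 in GFD-Smo and 6.93 ± 0.24 in NG-Smo. These were 2 of the 8 receptors, or 25%, where 5.31% of all genes passed an adjusted p of 0.05. Both calls held under every one of the alternative settings run for them, among them without GFD-Smo replicate 2 or 3. For Fgfr3 there were 29, with changes of 1.22 to 1.33. For Erbb2 there were 28, with changes of 0.79 to 0.95, since the filter on dim genes removed Erbb2.

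For Fgfr2 the log2 change was 1.04 (SE 0.30, 95% interval 0.41 to 1.67) and the limma adjusted p of 0.0539 missed the threshold, although no array overlapped. It passed in 10 of 29 alternatives, among them without GFI-Ptch replicate 1 (adjusted p = 0.0222), 2 (0.0478) or 4 (0.00726), arrays that enter here only through the shared estimate of spread. Fgfr4 had a change of 1.17 (SE 0.44, adjusted p = 0.164), and without NG-Smo replicate 2, the array at 9.77, the change was 1.66 with an adjusted p of 0.0137. Fgfr1 had 0.15 (SE 0.11, adjusted p = 0.632). The median change over the 4 FGF receptors was 1.11 and over the 4 EGF receptors -0.19, beside -0.01 over all genes.

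Egfr (-0.38, SE 0.19, adjusted p = 0.377) and Erbb3 (-0.51, SE 0.26, adjusted p = 0.381) had negative changes that did not pass, with no overlap of arrays. Erbb4 had 0.01 (SE 0.18, 95% interval -0.37 to 0.39, adjusted p = 0.997). In all, 5 of the 8 receptors (62.5%) had groups that did not overlap, against 12.6% of all genes, with Fgfr2, Fgfr3 and Erbb2 higher and Egfr and Erbb3 lower in GFD-Smo.

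GFD-Smo and GFD-Ptch tumours carry the same subtype name in different models, and the comparison shares the GFD-Smo arrays with the one before it. Sex is not balanced in it. Y-linked genes averaged 9.84 in both GFD-Ptch arrays, but 5.48, 5.48 and 5.45 in GFD-Smo replicates 1, 3 and 4, with 10.05 in replicate 2. Fgfr2, Fgfr3 and Erbb2 were higher in GFD-Smo. Fgfr2 was 4.06-fold higher in GFD-Smo tumours (log2 change 2.02, SE 0.36, 95% interval 1.25 to 2.79, limma adjusted p = 0.00179), with means of 9.54 ± 0.23 (SD, n = 4) in GFD-Smo and 7.52 ± 0.37 (SD, n = 2) in GFD-Ptch. Fgfr3 was 3.09-fold higher (1.63, SE 0.23, 95% interval 1.13 to 2.12, limma adjusted p = 0.000359), and both held in all 29 alternatives. Erbb2 was 1.58-fold higher (0.66, SE 0.16, 95% interval 0.32 to 0.99, limma adjusted p = 0.0112). The Erbb2 call was lost without GFD-Ptch replicate 1 (0.48, adjusted p = 0.125), with the gender label in the model (0.52, adjusted p = 0.0619) and with the level of Y-linked genes in it (0.52, adjusted p = 0.0537). The 3 calls were 37.5% of the receptors, where 15.6% of all genes passed.

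In the same comparison, Fgfr4 had a change of 1.26 (SE 0.54, limma adjusted p = 0.116), and Fgfr1 had 0.34 (SE 0.14, adjusted p = 0.0947). Fgfr4 passed in 4 of 29 alternatives, among them with only the compared groups (limma adjusted p = 6.94e-05) and with array weights (0.0193). It also passed without NG-Smo replicate 2 (adjusted p = 0.0468), an array that enters here only through the shared estimate of spread. Erbb4 had -0.41 (SE 0.22, adjusted p = 0.196), Egfr 0.01 (adjusted p = 0.987) and Erbb3 0.04 (adjusted p = 0.937). The arrays did not overlap for 6 of 8 receptors (75%), beside 57.1% of all genes in a comparison with only 2 arrays on the GFD-Ptch side.

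NG-Smo and NG-Ptch tumours did not differ detectably in any of the receptors. The changes lay between -0.16 (Erbb4) and 0.28 (Erbb3), with limma adjusted p-values of 0.867 to 1 and 0 of 8 under an unadjusted p of 0.05. For Fgfr2, the change was -0.001 with a 95% interval of -0.63 to 0.63, and for Fgfr3 it was -0.03 with an interval of -0.44 to 0.37. Among all genes 1.04% passed, and the groups did not overlap for 0 receptors and 5.65% of all genes.

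GFD-Ptch tumours gave negative changes against NG-Ptch tumours for Fgfr2 (-0.98, SE 0.36, 95% interval -1.75 to -0.21, limma adjusted p = 0.237) and Fgfr3 (-0.39, SE 0.23, adjusted p = 0.385), the opposite sign to the Smo tumours, and this comparison is also one of high against low Y-linked level. No receptor passed, as was true of all but 0.0100% of genes, and Fgfr2 was the only receptor with an unadjusted p under 0.05. With only those 2 groups in the fit Fgfr2 passed, at an adjusted p of 0.0441. Fgfr2, Fgfr3 and Erbb3 (-0.27, adjusted p = 0.666) had groups that did not overlap, 37.5% of the receptors beside 34.6% of all genes. Among the rest, Egfr had -0.35 (adjusted p = 0.431), Erbb4 0.26 (0.527), Fgfr1 -0.23 (0.378), Erbb2 0.14 (0.632) and Fgfr4 0.04 (0.974).

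GFI-Ptch tumours had the largest SD of the 5 groups for 6 of the 8 receptors. Against NG-Ptch the largest change was that of Egfr (-0.53, SE 0.19, 95% interval -0.94 to -0.11, limma adjusted p = 0.450), with Erbb4 at -0.27 (0.716) and the other 6 between -0.06 and 0.17. No receptor passed, nor did any other gene (0% of all genes, with 1701 genes and, of the receptors, Egfr at an unadjusted p under 0.05 in limma), and 0 receptors and 4.86% of all genes had groups that did not overlap. Without replicate 4, the tumour grown in a host, Egfr had -0.30 (adjusted p = 0.392), Fgfr2 0.34 and Fgfr4 -0.34.

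Against GFD-Ptch, GFI-Ptch tumours had a change of 0.98 in Fgfr2 (SE 0.36, limma adjusted p = 0.407), 0.35 in Fgfr1 (0.426) and -0.54 in Erbb4 (SE 0.22, adjusted p = 0.446). Fgfr2 without GFI-Ptch replicate 4 had 1.31 with an adjusted p of 0.0735. No receptor passed, while 0.00502% of all genes did, and Erbb4 alone (12.5% of the receptors, beside 16.5% of all genes) had groups that did not overlap.

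**Figure D2:**
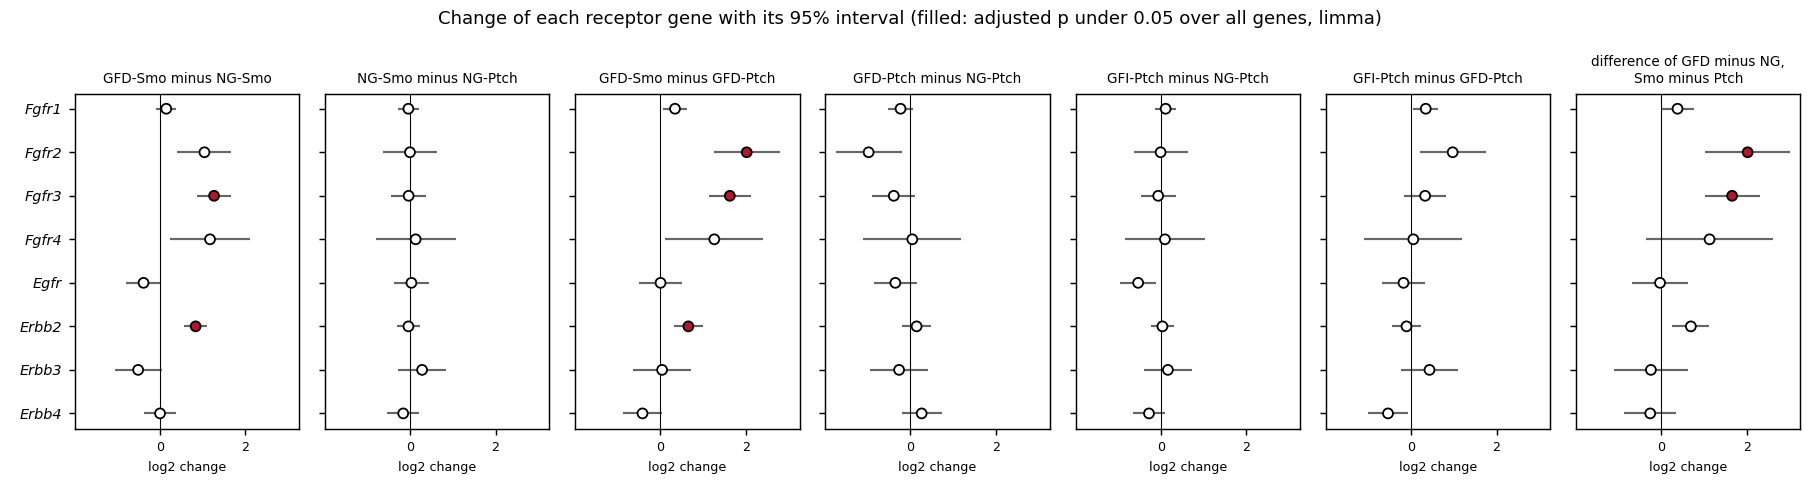
Log2 change (horizontal axis) of the 8 receptor genes with its 95% interval in the 6 comparisons of groups and, at the right, in the difference between models, with filled points where the limma adjusted p over all genes was under 0.05. Filled points are those of Fgfr3 and Erbb2 in GFD-Smo minus NG-Smo, of Fgfr2, Fgfr3 and Erbb2 in GFD-Smo minus GFD-Ptch, and of Fgfr2 and Fgfr3 in the difference.

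Whether GFD tumours differed from NG tumours by the same amount in both models was tested as the difference of the 2 changes, Smo minus Ptch. It passed for Fgfr2 (2.02, SE 0.47, 95% interval 1.03 to 3.02, limma adjusted p = 0.0271), with a GFD minus NG change of 1.04 in Smo and -0.98 in Ptch tumours. It also passed for Fgfr3 (1.66, SE 0.30, 95% interval 1.02 to 2.30, limma adjusted p = 0.00764), with 1.27 in Smo and -0.39 in Ptch tumours. These were 25% of the receptors, where 3.81% of all genes passed. Erbb2 had a difference of 0.69 (SE 0.20, adjusted p = 0.0717), Fgfr4 1.13 (0.362), Fgfr1 0.38 (0.240), Egfr -0.03 (0.964), Erbb3 -0.24 (0.748) and Erbb4 -0.26 (0.613).

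The Fgfr2 difference rested on few arrays: its adjusted p was 0.0512 on leaving out GFD-Ptch replicate 1 and 0.17 on leaving out replicate 2 of that group (difference 1.76). It was 0.0562 with GFD-Smo replicate 2 left out, 0.0518 with NG-Ptch replicate 1 and 0.055 with NG-Ptch replicate 2 left out. It was also lost with the gender label (1.39, 0.122) or the level of Y-linked genes as a covariate (1.79, 0.131). The Fgfr3 difference was lost with the Y-linked level (1.61, 0.0602) and in none of the other 28 alternatives. That of Erbb2 passed in 7 of 28, among them without NG-Smo replicate 4 (0.81, 0.0233), the highest Erbb2 array of its group, and without GFI-Ptch replicate 1 (0.69, 0.0465).

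Markers of astrocytes were highest in GFD-Smo tumours, as were Fgfr2, Fgfr3 and Erbb2, and lowest in GFD-Ptch, as were Fgfr2 and Fgfr3 but not Erbb2 (second highest there, mean 7.11). Other lists had the same highest and lowest groups, among them neural stem cell markers (mean 9.60 in GFD-Smo and 8.86 in GFD-Ptch) and oligodendrocyte progenitor markers (10.13 and 8.73). Some did not, such as microglia and macrophage markers, which were highest in NG-Smo (9.76). The mean level of the 14 measured astrocyte markers (of 15 listed) was 11.46 to 11.51 in GFD-Smo, 10.11 to 10.43 in NG-Smo, 8.92 to 10.82 in GFI-Ptch, 9.18 and 9.43 in GFD-Ptch, and 10.26 to 10.41 in NG-Ptch tumours. In the GFI-Ptch tumours, replicates 1 to 4 had marker levels of 10.82, 10.47, 9.67 and 8.92, beside Fgfr2 at 9.34, 9.02, 8.15 and 7.48. The order of those 4 arrays is thus the same for Fgfr2 and the astrocyte markers. It was not particular to them. Oligodendrocyte markers (8.65, 7.99, 7.67 and 7.35), microglia and macrophage markers (9.66, 9.49, 9.14 and 8.91) and Fgfr3 fell in the same order. Markers of oligodendrocyte progenitors did not (9.37, 9.71, 8.69 and 7.92). Of the 14 astrocyte markers, 6 were called higher in GFD-Smo than in NG-Smo (median change 1.08). In GFD-Smo against GFD-Ptch, 12 were called higher (2.40). None was called in GFD-Ptch against NG-Ptch, where all 14 lay below 0 (-1.13) and 9 had an unadjusted p under 0.05 in limma.

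Aqp4, the water channel of astrocyte endfeet, averaged 12.32 ± 0.09 in GFD-Smo, 10.43 ± 0.05 in NG-Smo, 10.02 ± 1.05 in GFI-Ptch, 8.82 ± 0.18 in GFD-Ptch and 10.65 ± 0.30 in NG-Ptch tumours (± SD). Gfap, the astrocyte filament protein, averaged 10.90 ± 0.31 in GFD-Smo, 9.78 ± 0.13 in NG-Smo, 10.06 ± 0.65 in GFI-Ptch, 9.71 ± 0.66 in GFD-Ptch and 10.48 ± 0.07 in NG-Ptch. The 12 neural stem cell markers averaged 9.47 to 9.72 in GFD-Smo tumours, above the other 14 arrays (at most 9.38), and 1 was called higher than in NG-Smo. Of 11 fibroblast and pericyte markers, 4 were called higher in GFD-Smo than in NG-Smo (median change 0.38). All 9 Purkinje cell and interneuron markers lay above 0 in that comparison (median 0.88) with 0 called in limma and 6 at an unadjusted p under 0.05. Their mean level was 9.30, 9.12, 9.48 and 7.69 in GFD-Smo and 8.71, 7.85, 7.71 and 7.65 in NG-Smo tumours. GFD-Smo replicate 4 thus lay within the NG-Smo range. The part of these markers in the receptor differences was not tested. The 10 markers of oligodendrocyte progenitors averaged 10.05 to 10.25 in GFD-Smo, 9.41 to 10.59 in NG-Smo, 7.92 to 9.71 in GFI-Ptch, 8.69 and 8.77 in GFD-Ptch, and 9.67 to 10.11 in NG-Ptch. Of the progenitor markers, 0 were called between GFD-Smo and NG-Smo (1 at an unadjusted p under 0.05) and 6 were called higher in GFD-Smo than in GFD-Ptch.

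**Figure D3:**
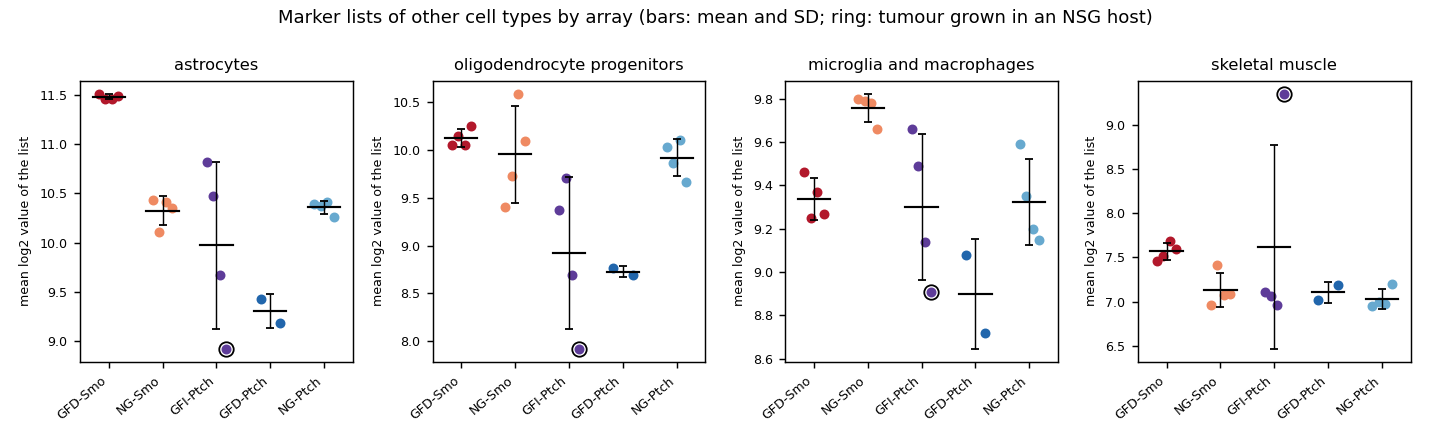
Mean log2 value of the markers of 4 other cell types (vertical axis) in each array by group, with bars for mean and SD and a ring around GFI-Ptch replicate 4. The astrocyte markers lie at 11.46 to 11.51 in GFD-Smo, above all other arrays, and GFI-Ptch replicate 4 is at 9.35 for the skeletal muscle markers.

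Markers of tumour identity and single arrays were examined beside these values. Atoh1, the transcription factor of granule neuron progenitors, and Gli1, the Hedgehog target, had group means of 11.90 to 12.38 and of 10.06 to 10.44, and the measured markers of granule progenitors and Hedgehog tumours (14 of 16) averaged 11.03 to 11.68 in every array. Ptch1 averaged 12.71 and 12.53 in GFD-Smo and NG-Smo and 11.31, 11.41 and 11.56 in GFI-Ptch, GFD-Ptch and NG-Ptch, and the labels do not say which part of the gene was altered. GFI-Ptch replicate 4, the array with the lowest Egfr, Erbb4 and Fgfr3 and the highest Fgfr1 and Erbb3, had 9.35 for the 11 skeletal muscle markers against 6.95 to 7.69 in the other 17 arrays. Its embryonic myosin Myh3 was at 10.77. The 4 GFD-Smo arrays, the group with the highest Fgfr4 mean, were at 7.46 to 7.69, above every other array but that one, and all 11 muscle markers lay above 0 against NG-Smo (median 0.35), with 0 called in limma and 1 at an unadjusted p under 0.05. NG-Smo replicate 2, the array with the highest Fgfr4, had 7.41 for the muscle markers, the highest of its group. NG-Smo replicate 4, the highest Erbb2 and Erbb3 array of its group, had the highest level of oligodendrocyte markers of all arrays (9.31). What these markers contribute to the receptor values was not tested.

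The FGF family genes, EGF family ligands, co-receptors, regulators and downstream genes were described from 6 lists with 97 measured genes. The calls among them were 6.19% of the lists in GFD-Smo minus NG-Smo, beside 5.31% of all genes, 21.6% in GFD-Smo minus GFD-Ptch, beside 15.6%, 1.03% in NG-Smo minus NG-Ptch, beside 1.04%, and 5.15% in the difference between models, beside 3.81%. The first and the third share are thus close to those of all genes, and the last rests on 5 genes. No share was tested against that of all genes. Between GFD-Smo and NG-Smo tumours, 1 of 22 listed FGF family genes was called (Fgf2, basic FGF, 0.35 higher, SE 0.09, limma adjusted p = 0.029). The median of the list was 0.03. Of 10 EGF family ligands, Hbegf, heparin-binding EGF, was the only one called (0.60 higher, SE 0.13, limma adjusted p = 0.0161), with means of 9.23 ± 0.09 in GFD-Smo and 8.63 ± 0.18 in NG-Smo (SD, n = 4 each). Among 16 co-receptors and modulators of FGF, the heparan sulphate proteoglycan Sdc2 was called (0.48 higher, limma adjusted p = 0.00871), while 15 of 16 lay above 0 and the list had a median of 0.24. Of 13 inhibitors and sheddases, Rhbdf1, an inactive rhomboid that steers the sheddase Adam17, was called (0.32 higher, limma adjusted p = 0.0331).

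None of the 16 receptor adaptors was called in that comparison (2 at an unadjusted p under 0.05 in limma, median -0.06). Of 20 feedback and target genes of ERK, 2 were called and both were lower in GFD-Smo, the ERK phosphatase Dusp5 (fell by 0.67, SE 0.17, limma adjusted p = 0.0303) and the immediate early gene Ier3 (fell by 0.50, limma adjusted p = 0.0277). The list as a whole had a median of 0.02. The calls of Hbegf and Sdc2 held in all 29 alternatives, and those of the others in 21 of 28 (Fgf2), 20 of 29 (Rhbdf1), 21 of 29 (Dusp5) and 22 of 29 (Ier3).

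Against GFD-Ptch tumours, GFD-Smo tumours had higher Fgf12 (0.60), Fgf1 (0.56) and Fgf2 (0.41). They had lower Fgf23 (fell by 0.27, called in 13 of 28 alternatives), which made 4 of 22 listed FGF family genes called. Of 10 EGF family ligands, Hbegf was higher (1.07, SE 0.16, limma adjusted p = 0.000563) and Nrg1, the ligand of Erbb3 and Erbb4, lower (fell by 0.44, SE 0.11, limma adjusted p = 0.0162). Among the 16 co-receptors and modulators, Fgfrl1, an FGF receptor without a kinase domain, was higher (0.97, SE 0.16, limma adjusted p = 0.00084), Sdc2 was higher (0.55) and the glypican Gpc4 was lower (fell by 0.71). Lrig1, a membrane protein that promotes degradation of EGF receptors, was higher (1.35, SE 0.30, limma adjusted p = 0.00751), as were Rhbdf1 (0.40) and Adam17 (0.36), which made 3 of 13 inhibitors and sheddases. Without GFD-Ptch replicate 2 none of those 3 passed: Lrig1 had 0.97 (adjusted p = 0.17), Rhbdf1 0.32 (0.213) and Adam17 0.18 (0.459).

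Of the 16 adaptors, Shc3 (1.09, limma adjusted p = 0.0331) and Gab2 (0.58) were higher and Shc2 was lower (fell by 0.48) in GFD-Smo than in GFD-Ptch. Gab2 was called in 12 of 29 alternatives and had 0.37 (adjusted p = 0.307) without GFD-Ptch replicate 1, and Shc3 was lost without GFD-Ptch replicate 1 (adjusted p = 0.0697) or 2 (0.285). Of the 20 ERK genes 4 were higher and 2 lower, led by Dusp5 (fell by 1.13, SE 0.21, limma adjusted p = 0.00209), the transcription factor Etv4 (0.87 higher, SE 0.15, limma adjusted p = 0.00101) and the feedback inhibitor Spry2 (0.81 higher, SE 0.15, limma adjusted p = 0.00173). The Dusp5 levels were 9.30 ± 0.06 in GFD-Smo and 10.42 ± 0.30 in GFD-Ptch, and the members of this list thus went in both directions. The list medians in this comparison ran from -0.12 (EGF family ligands) to 0.21 (ERK genes), beside -0.06 over all genes. Of the 21 calls in this comparison, 11 were lost without GFD-Ptch replicate 1 and 13 without GFD-Ptch replicate 2, and 5 held without either (Hbegf, Fgfrl1, Dusp5, Etv4 and Spry2). Fgf23 without replicate 2 had -0.12 (adjusted p = 0.556) and without replicate 1 -0.42, and Ier3 without replicate 2 had -0.32 (adjusted p = 0.424).

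NG-Smo against NG-Ptch gave 1 call among the 97 genes, Gpc4 (fell by 0.92, SE 0.15, limma adjusted p = 0.00673), with means of 7.07 ± 0.06 in NG-Smo and 8.0 ± 0.20 in NG-Ptch (SD, n = 4 each). That call was lost only with the replicate number as a block. The comparisons among the Ptch groups gave 0 calls in limma, with 19 genes (GFD-Ptch minus NG-Ptch), 8 (GFI-Ptch minus NG-Ptch) and 12 (GFI-Ptch minus GFD-Ptch) at an unadjusted p under 0.05. The difference between models passed for Hbegf (0.93, limma adjusted p = 0.0258), Fgf2 (0.59, 0.0291), Sdc2 (0.66, 0.0287), Etv4 (0.73, 0.0426) and Dusp5 (-1.02, 0.0448). These held in 24 of 29 (Hbegf), 17 of 28 (Fgf2), 21 of 29 (Sdc2), 11 of 29 (Etv4) and 13 of 29 (Dusp5) alternatives. Every one of these calls was lost with the gender label and with the Y-linked level as a covariate. Each was also lost without GFD-Ptch replicate 1, and each but that of Sdc2 without GFD-Ptch replicate 2.

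**Figure D4:**
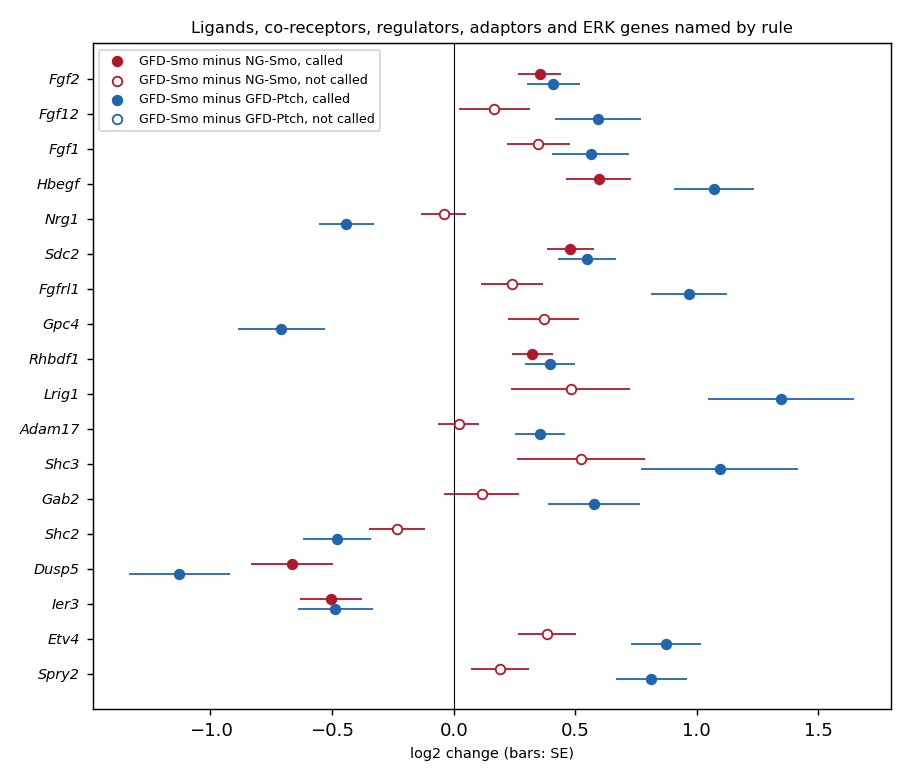
Log2 change with its SE (horizontal axis) of the FGF family genes, EGF family ligands, co-receptors, regulators, adaptors and ERK genes named by rule. GFD-Smo minus NG-Smo is in red and GFD-Smo minus GFD-Ptch in blue, with points filled where called. Hbegf, Sdc2, Fgf2 and Rhbdf1 are called higher and Dusp5 and Ier3 called lower in both, and the blue points of Lrig1 and Dusp5 reach 1.35 and -1.13.

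The genes closest to each receptor over the 18 arrays were found by the root mean square gap between gene-centred profiles, for the 7 receptors whose group means spanned at least 0.5. For Fgfr2 these were Sparcl1 (gap 0.24), Paqr8 (0.24), Pla2g7 (0.25) and Plce1 (0.25), beside a spread of Fgfr2 itself of 0.69, and Sparcl1 is an astrocyte marker of the list above. For Fgfr3 they were Lpar1 (0.19), Plcd4 (0.20), Ppp1r3c (0.20) and Mt3 (0.22), beside an own spread of 0.61. For Erbb2 they were Frem2 (0.13), Gjb2 (0.13), Igsf1 (0.14) and Fam20a (0.14), beside 0.37.

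Fgfr4 was followed most closely by Fitm1 (0.30), Cdh15 (0.30), which encodes M-cadherin, Smarcd3 (0.31) and Ttc23 (0.36), beside an own spread of 0.77. The profiles nearest to Egfr were Mboat1 (0.18), the thymidine kinase gene Tk1 (0.20), the mitotic kinase gene Nek2 (0.21) and Fbxo28 (0.21), beside 0.34. Those nearest to Erbb3 were Capn6 (0.19), Adamts4 (0.23), Runx1 (0.23) and Src (0.23), beside 0.40, and to Erbb4 Jarid2 (0.15), Fut8 (0.15), Utrn (0.16) and Cd47 (0.17), beside 0.28. The profiles share arrays and were picked for likeness, so the gaps are descriptions without a test.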

How the data were processed

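A log2 expression value per probe set and array was deposited by the authors for 35556 probe sets on 18 arrays of mouse medulloblastoma RNA. The submitters' processing notes name Partek 6.6, and background correction, normalization and genome build are not given in the sources used here. The log base was not stated either: the values ran from 4.219 to 14.32, above the natural log of the largest 16-bit scanner value (11.09), and were read as log2. Array medians lay between 7.736 and 7.868. Of the probe sets, 21789 were annotated to 1 gene symbol, 1621 to several and 12146 to none. Those with 1 symbol gave 19938 genes, each by its probe set of highest mean over all arrays (999 genes had several).

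A mean per title group was fitted with limma 3.58.1 (lmFit and eBayes, R 4.3.3) on all 18 arrays, with 1 spread per gene over the 5 groups (13 residual and 2.448 prior degrees of freedom). The two-sided p-values were adjusted by Benjamini-Hochberg over the 19938 genes in each of 7 contrasts, and a gene is called at an adjusted p under 0.05. The scripts were tested on simulated data. The number of arrays limits the precision. Alternatives were quantile normalization, median centring, a filter on dim genes, the mean of a gene's probe sets, an intensity trend, array weights, the compared groups alone, the gender label or Y-linked level as a covariate, the replicate number as a block, and each array left out in turn. An alternative that left out GFI-Ptch replicate 4 and NG-Smo replicate 4 together was chosen after seeing the data. The 8 receptors were always named, and marker lists are given by counts and mean level. Other pathway genes were named as up to 3 called genes of largest change per list and comparison. Some further called genes were added to complete a count or to show how calls moved. Promoters came from RefSeq (GRCm38.p6). The receptors, the pathway and marker lists and the motifs were chosen with earlier results of these data known.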

Additional observations from a re-analysis of the deposited data

Results flagged for a closer look

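In Erbb2, NG-Smo replicate 4 (7.28) stood apart from the other 3 arrays of its group (next highest 6.86), with a gap to the next array of 0.849 of the group's range, past Dixon's 95% critical value for 4 arrays. It was the only one set apart among the 32 receptor groups of 4 arrays examined, and chance sets about 1 in 20 such groups apart. Without it the Erbb2 change of GFD-Smo against NG-Smo was 0.95, beside 0.84 with it.

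The GFD minus NG change differed between the Smo and Ptch models in Fgfr2 (difference 2.02, limma adjusted p = 0.0271) and in Fgfr3 (1.66, limma adjusted p = 0.00764), by the test of the difference itself. Fgfr2 and Fgfr3 were higher in all 4 GFD-Smo arrays than in every NG-Smo array, and lower in both GFD-Ptch arrays than in every NG-Ptch array. Groups did not overlap for 62.5% of the receptors beside 12.6% of all genes in Smo tumours. In Ptch tumours the shares were near each other, 37.5% beside 34.6%. Neither gene was called there (limma adjusted p = 0.237 for Fgfr2 and 0.385 for Fgfr3), and Fgfr2 also missed the threshold in Smo tumours (0.0539). The Ptch side of both differences rests on 2 GFD-Ptch arrays, both labelled male and with Y-linked genes at 9.84, against 5.40 to 5.47 in the NG-Ptch arrays, so subtype and sex cannot be told apart there. The astrocyte markers had a difference of the same sign (called for 9 of 14, median 2.27), which was not particular to them. Differences above 0 were also found for 10 of 10 oligodendrocyte progenitor markers (median 1.265, 1 called) and 10 of 12 neural stem cell markers (0.48, 1 called). The same held for 7 of 9 Purkinje cell and interneuron markers (1.10, 1 called), while all 8 lymphocyte markers lay below 0 (-0.34). The part of these markers in the receptor differences was not tested.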

How the results depend on the processing

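Of 7 called receptor changes under 29 alternatives, 189 of 201 values kept the call, 12 lost it (in 3 changes, named in the report) and 0 reversed. Of the 49 that were not called, 28 of 1409 values, in 7 changes, gained a call. The count of called receptors in GFD-Smo minus NG-Smo was 2, and 4 with array weights. In GFD-Smo minus GFD-Ptch it was 3, but 5 with array weights and 6 with only the compared groups. It was 5 with GFI-Ptch replicate 4 and NG-Smo replicate 4 both left out. Apart from single arrays left out, the lowest count, 2, came where Erbb2 was lost, with the gender label or the Y-linked level, or removed, with the filter on dim genes. In GFD-Ptch minus NG-Ptch it was 0, and 1 with only the compared groups (Fgfr2). In the difference between models it was 2, and 1 with the gender label, 0 with the Y-linked level and 1 with the replicate block. It rose to 3 in settings where Erbb2 gained a call, among them quantile normalization, median centring and array weights. Leaving out 1 array at a time gave 2 to 3 calls in GFD-Smo minus NG-Smo, 2 to 4 in GFD-Smo minus GFD-Ptch, 1 to 3 in the difference, and 0 to 0 in the other 4 comparisons.

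In the replicate block fit the Fgfr2 difference was 2.20 (adjusted p = 0.0521), and it moved no other receptor call. The numbers did not pair the arrays: deviations from the group mean correlated at -0.31 to 0.187 over 29 same-number pairs and at -0.379 to 0.304 over 99 others. Over all genes, calls in GFD-Smo minus GFD-Ptch numbered 3110 (997 to 6709 over the alternatives), with 1694 higher and 1416 lower, and with 1963 higher and 771 lower after median centring. In the difference 759 genes were called (159 to 1484), with 479 higher and 280 lower, and 488 and 170 after median centring. In NG-Smo minus NG-Ptch 208 were called (34 to 1169), with 121 and 87, and 119 and 52 after median centring. Calls numbered 1058 (643 to 1740) in GFD-Smo minus NG-Smo, 2 (0 to 689) in GFD-Ptch minus NG-Ptch, 0 (0 to 180, and 1701 at an unadjusted p under 0.05 in limma) in GFI-Ptch minus NG-Ptch, and 1 (0 to 64) in GFI-Ptch minus GFD-Ptch. Of 33 called changes of other pathway genes, 760 of 952 values kept the call and 0 reversed. No detection p-values were in the files, so signal over background could not be weighed.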

Other observations

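Lrig1, which promotes the degradation of EGF receptors, averaged 10.48 ± 0.06 (SD, n = 4) in GFD-Smo tumours, and the 4 NG-Smo arrays lay between 9.77 and 10.39, a change of 0.48 that did not pass (limma adjusted p = 0.376). It averaged 9.57 ± 0.61 in GFI-Ptch, 9.14 ± 0.54 in GFD-Ptch and 9.83 ± 0.24 in NG-Ptch tumours. Fgfrl1, the FGF receptor without a kinase, averaged 9.80 ± 0.09 in GFD-Smo, 9.56 ± 0.25 in NG-Smo, 9.08 ± 0.24 in GFI-Ptch, 8.83 ± 0.02 in GFD-Ptch and 9.32 ± 0.17 in NG-Ptch tumours. The glypican Gpc4 averaged 7.44 ± 0.09 in GFD-Smo and 7.07 ± 0.06 in NG-Smo against 8.14 ± 0.37 in GFI-Ptch, 8.15 ± 0.27 in GFD-Ptch and 8.0 ± 0.20 in NG-Ptch tumours, and each Smo array lay below each Ptch array.

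The 16 markers of microglia and macrophages averaged 9.25 to 9.46 in GFD-Smo, 9.66 to 9.80 in NG-Smo, 8.91 to 9.66 in GFI-Ptch, 8.72 and 9.08 in GFD-Ptch and 9.15 to 9.59 in NG-Ptch tumours. Of these markers, 4 were called lower in GFD-Smo than in NG-Smo and 3 higher in NG-Smo than in NG-Ptch.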
